A study of Homo sapiens with 9 samples.

Results

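Molecular chaperones and folding helpers outside the inducible HSP70 genes were compared in EA.hy926, an established human line made by fusing umbilical vein endothelial cells with the A549 lung carcinoma line. The genes were taken by symbol: HSP70 and HSP110 relatives (HSPA, HSPH), HSP60 and HSP10 (HSPD, HSPE), HSP90, small heat shock proteins (HSPB), J proteins (DNAJ), the CCT chaperonin, BAG proteins, disulfide isomerases (PDIA), FK506-binding proteins (FKBP), cyclophilins (PPIA to PPIH), prefoldin (PFDN), STIP1 and AHSA1. HSPA1A, HSPA1B, HSPA6, BAG3 and HSPBAP1 were left out. The pattern met 43 symbols with a named probe set, and 38 were left after these 5. Of the 38, 36 reached a log2 intensity of 5 on at least 3 of the 9 arrays and are the members described here, among 12155 genes tested. HSPB3 (3.33 to 4.15 over the 9 arrays) and the pseudogene FKBP9P1 (3.14 to 4.49) did not. The J proteins, CCT, HSP90 and the disulfide isomerases, together with HSPA8, HSPA5, HSPE1 and AHSA1, were not analysed here.

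Each of 3 groups held 3 arrays: unexposed cells, cells given 5 nm silver nanoparticles and cells given 100 nm silver nanoparticles. RNA was taken after 6 h with the particles near their LD50, per the labels, which name no mass dose. No other cell line is described here, and nothing in the labels says that arrays of a group came from separate cultures. The p-values therefore measure the spread between these arrays, which may be technical.

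Chaperones bind unfolded protein and hold, fold or pass it on. HSP70 proteins do so in cycles of ATP hydrolysis, driven by J proteins and reset by exchange factors such as the HSP110 and BAG proteins. HSP90 matures signalling proteins with the help of co-chaperones, small heat shock proteins hold unfolded protein without ATP, and chaperonins such as HSP60 fold it inside a closed chamber. The cytosol, the mitochondrial matrix and the endoplasmic reticulum (ER) have their own chaperone sets, and the factor HSF1 induces many of the cytosolic and some of the mitochondrial genes through heat shock elements when unfolded protein builds up. Cyclophilins and FKBPs speed the turning of proline bonds, and prefoldin hands new actin and tubulin to CCT.

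The members covered few of the families in full. By known location of the protein, 23 members act in the cytosol, 3 in mitochondria (HSPA9, HSPD1, PPIF), 3 in the ER (FKBP7, PPIB, PPIC) and 3 in the nucleus (PPIE, PPIG, PPIH). The other 4 are annotated as RNA without a protein product: the pseudogene HSPA7, the antisense RNAs DNAJC9-AS1 and DNAJC27-AS1, and the read-through transcript HSPB2-C11orf52.

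The promoters of 5 members are shown: HSPH1 and HSPA1L, with the largest differences among members that have a window, HSPA9, the member called below, and HSPD1 and HSPB1, which hold heat shock element letters. RefSeq (GRCh38.p14) gave a window of 300 bases, 250 before and 50 after a gene start, for 28 of the 36 members. Windows were searched on both strands for the 2-unit heat shock element, as GAANNTTC or TTCNNGAA, and for the 3-unit element, in which these forms overlap by 1 unit. The sequences run 5′ to 3′ along the gene's strand, and capitals mark these matches. HSPD1 is at chr2:197499791-197500090 (minus strand), HSPA9 at chr5:138575352-138575651 (minus), HSPA1L at chr6:31815234-31815533 (minus), HSPB1 at chr7:76302423-76302722 (plus) and HSPH1 at chr13:31162339-31162638 (minus).
HSPD1: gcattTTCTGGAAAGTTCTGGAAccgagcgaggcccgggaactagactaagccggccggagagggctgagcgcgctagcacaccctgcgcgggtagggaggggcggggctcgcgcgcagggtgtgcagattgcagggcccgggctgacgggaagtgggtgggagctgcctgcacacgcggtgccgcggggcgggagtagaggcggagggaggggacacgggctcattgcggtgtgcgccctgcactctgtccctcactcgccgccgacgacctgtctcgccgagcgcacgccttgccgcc
HSPA9: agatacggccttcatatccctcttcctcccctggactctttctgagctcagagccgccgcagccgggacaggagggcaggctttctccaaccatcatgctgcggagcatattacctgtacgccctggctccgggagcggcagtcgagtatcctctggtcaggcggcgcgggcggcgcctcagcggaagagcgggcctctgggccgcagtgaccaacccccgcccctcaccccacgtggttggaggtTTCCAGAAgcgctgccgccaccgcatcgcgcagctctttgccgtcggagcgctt
HSPA1L: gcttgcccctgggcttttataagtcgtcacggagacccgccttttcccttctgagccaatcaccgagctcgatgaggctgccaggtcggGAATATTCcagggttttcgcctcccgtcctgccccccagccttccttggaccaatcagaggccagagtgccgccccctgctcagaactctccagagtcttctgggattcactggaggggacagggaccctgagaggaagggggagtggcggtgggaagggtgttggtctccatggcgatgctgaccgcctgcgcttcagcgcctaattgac
HSPB1: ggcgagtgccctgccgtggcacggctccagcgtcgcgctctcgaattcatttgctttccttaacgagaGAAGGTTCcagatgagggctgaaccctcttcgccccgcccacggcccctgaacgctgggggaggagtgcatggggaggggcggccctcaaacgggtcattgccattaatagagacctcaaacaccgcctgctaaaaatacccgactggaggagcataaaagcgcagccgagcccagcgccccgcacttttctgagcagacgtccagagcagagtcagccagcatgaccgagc
HSPH1: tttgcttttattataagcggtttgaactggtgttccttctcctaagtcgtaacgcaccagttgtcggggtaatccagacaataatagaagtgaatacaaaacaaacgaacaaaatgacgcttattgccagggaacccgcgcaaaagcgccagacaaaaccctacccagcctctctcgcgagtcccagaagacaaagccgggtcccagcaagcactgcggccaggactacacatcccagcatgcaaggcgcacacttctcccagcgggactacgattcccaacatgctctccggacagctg

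HSPD1 was the one member with a 3-unit match, 245 bases before its start, in 1 of 37 member windows (2.7%). Over all genes 172 of 35116 windows (0.49%) held one. RefSeq gave a second HSPD1 start farther upstream, whose window (chr2:197500225-197500524) had no such match. HSPD1 as annotated, from that outer start, lies 105 bases from HSPE1, the HSP10 lid of the same chaperonin, with no gene between them. The 2-unit form GAANNTTC was found for 6 of the 28 members with a window (BAG2, HSPA1L, HSPB1, HSPB8, HSPD1, PFDN6). That was 7 of 37 member windows (18.9%), with overlapping windows of PFDN6 among them, against 6.77% of all windows. The form TTCNNGAA was found for 4 members (HSPA4L, HSPA9, HSPD1, STIP1), in 4 of 37 member windows (10.8%) against 7.74% of all windows. HSPH1, the member with the largest difference below, had no such letters in its window. The window of HSPA1L shares 241 bases with that of HSPA1A, the inducible HSP70 gene read in the opposite direction, and its single match is the same stretch of DNA. The ER stress element, CCAAT and CCACG set 9 bases apart, was found in 27 windows over all genes (0.0769%) and in none of the members' windows. The 2-unit search was chosen after the expression values were seen.

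The first comparison asked how the families differed after 5 nm particles. The HSP110 exchange factors, the mitochondrial chaperones HSPA9 and HSPD1, the HSP90 co-chaperones PPID and STIP1, the small heat shock protein HSPB1 and the HSP70 relative HSPA1L had higher intensities than controls in every replicate number, with mean differences of 0.25 to 1.31 on the log2 scale, where 1 unit is a 2-fold step. Prefoldin, the BAG proteins, the nuclear cyclophilins and the ER members had mean differences between -0.14 and 0.08. Other members of the first set of families did not follow. FKBP5, also an HSP90 co-chaperone, was lower in every number, with a mean of -0.14. PPIF of the mitochondria and the HSP70 relative HSPA12B had means of -0.07 and -0.17. The HSP70 relatives HSPA2, HSPA12A and HSPA14 had means of 0.02 to 0.12, and the small heat shock protein HSPB8 was at 0 in number 3. Arrays that carry the same replicate number in the labels deviated together, so that the spread within a group was wide. Their values look as if the 3 arrays of a number had been normalized and summarised as a set, a step that no source used here states. The same-number differences and the fits with the number as a block are then differences within such sets, many of them exactly 0, and overlap between groups holds offsets between sets. Whether these offsets come from the cultures or from the processing cannot be told apart. Without a term for the number, 0 of 36 members were higher or lower at a Benjamini-Hochberg adjusted p under 0.05 over all genes (limma), beside 0.074% of all genes higher and 0.0% lower. At an unadjusted p under 0.05 the same fit had 3 members higher (HSPH1, HSPA1L and HSPA7; 1.36% of all genes) and 0 lower (0.296%).

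With the replicate number as a block, 1 member was called at an adjusted p under 0.05 in limma, HSPA9, beside 0.296% of all genes called higher, and 0 were called lower, beside 0.354%. At an unadjusted p under 0.05 with the block, 10 members were higher (5.48% of all genes): HSPH1, HSPA1L, HSPA7, PPID, HSPA9, HSPA4L, HSPA4, HSPD1, STIP1 and HSPB1. BAG4 and FKBP5 were lower (8.83%). The same 10 members had differences above 0, and above 0.1, in all 3 numbers, against 8.03% and 4.44% of all genes. HSPH1 and HSPA1L exceeded 0.5 in all 3 (0.814% of all genes). The 5 nm arrays lay above all control arrays for 3 members, HSPH1, HSPA1L and HSPA7 (1.41% of all genes), and below them for 0 (0.469%). Of the 10 members, 9 had their largest difference in number 2 and HSPD1 in number 3. Among all 976 genes higher in every number, 79.2% had it in number 2.

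**Figure D1:**
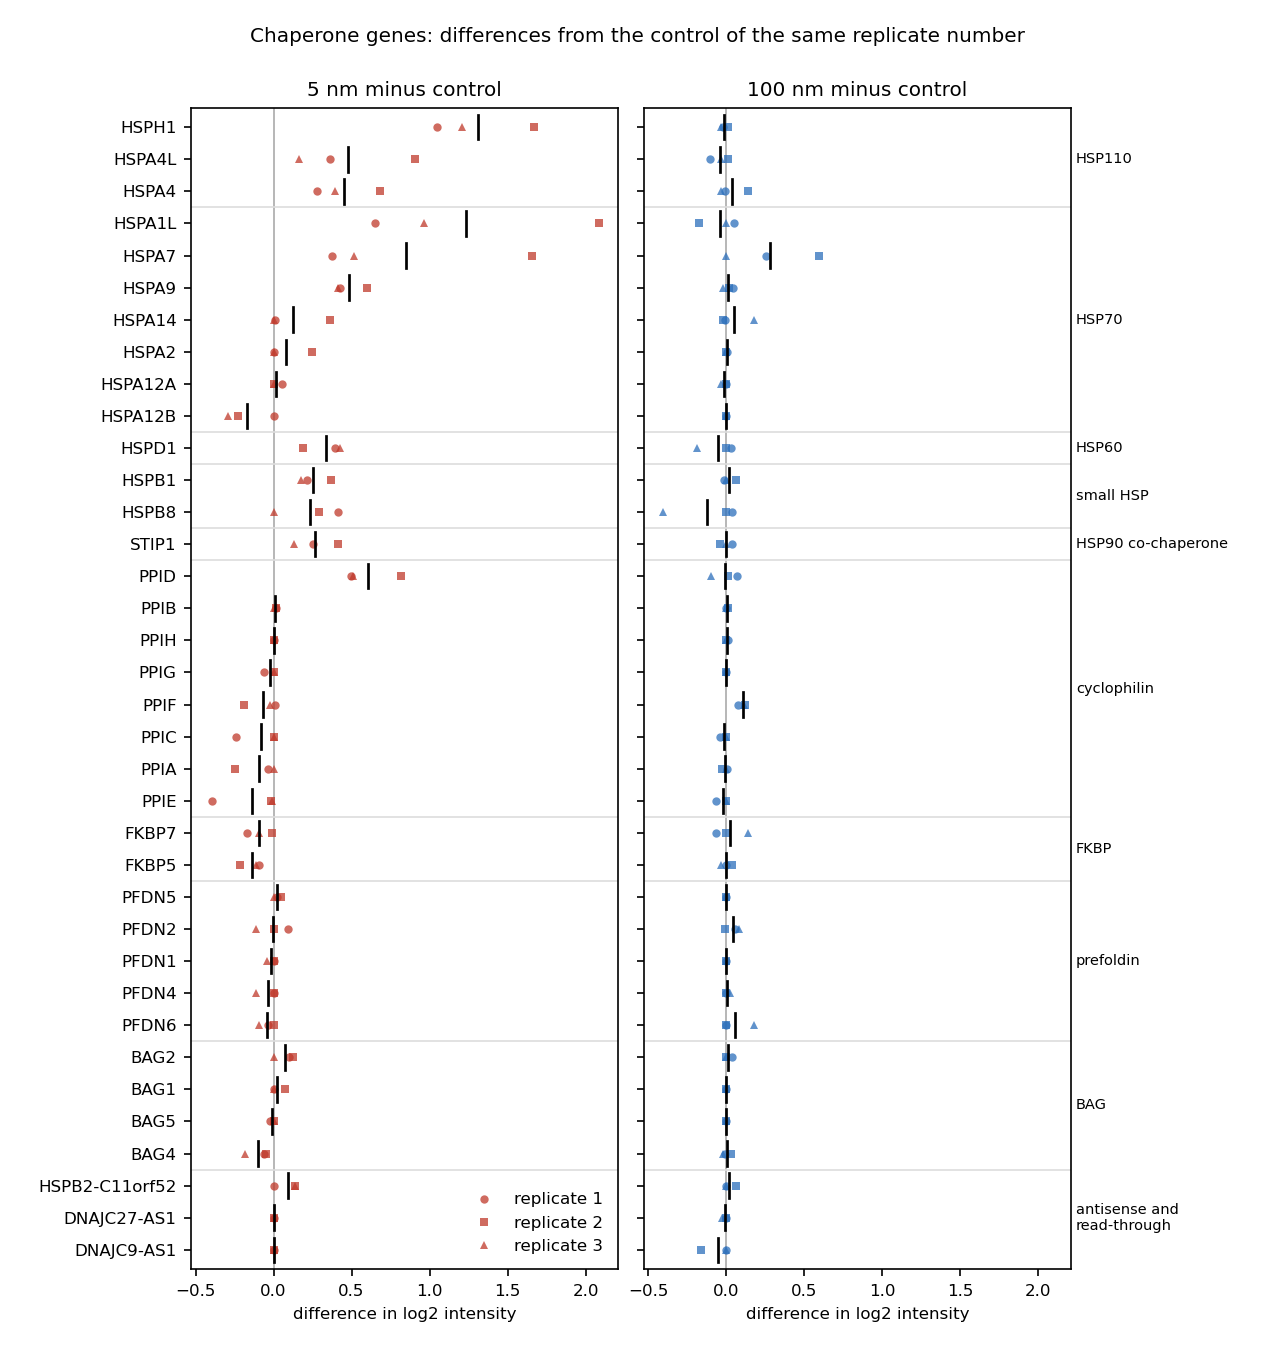
Difference in log2 intensity from the control array of the same replicate number (x axis) for each of the 36 members (rows, grouped by family), for 5 nm (left) and 100 nm particles (right); symbols are replicates 1 to 3 and vertical bars their means. On the left HSPH1 (mean 1.31) and HSPA1L (1.23) reach farthest to the right, and on the right the means stay between -0.12 and 0.28.

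HSP110 proteins are distant HSP70 relatives that release ADP from HSP70 and hold unfolded protein. HSPH1, the heat-inducible member, had log2 intensities of 11.17, 10.65 and 10.33 on control arrays 1 to 3, 12.22, 12.32 and 11.53 on the 5 nm arrays, and 11.15, 10.66 and 10.29 on the 100 nm arrays. The lowest 5 nm array lay above the highest control array, and each 100 nm array lay beside the control of its number. The mean went from 10.72 ± 0.43 (SD, n = 3) to 12.02 ± 0.43 (SD, n = 3) with 5 nm particles, a difference of 1.31 (2.48-fold, 95% interval 0.61 to 2.01). The adjusted p was 0.542 in limma with Benjamini-Hochberg adjustment and 0.0514 with the block, whose interval was 0.94 to 1.68. Over all settings tried the adjusted p ran from 0.0134, with the block and without 5 nm replicate 2, to 1.0, and was 0.0278 on quantile-normalized arrays.

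HSPA4 had 10.95, 10.21 and 9.84 in controls and 11.23, 10.90 and 10.23 with 5 nm particles. HSPA4L had 9.63, 8.90 and 8.64 in controls and 9.98, 9.81 and 8.81 with 5 nm particles. For both, the exchange factors of the cytosol that accompany constitutive HSP70, the groups overlapped while each exposed array exceeded the control of its number. The differences were 0.28, 0.68 and 0.39 for HSPA4 and 0.36, 0.91 and 0.16 for HSPA4L, with means of 0.45 and 0.48. Their adjusted p with the block was 0.125 and 0.324 (limma, Benjamini-Hochberg), so neither passed. All 3 HSP110 genes were thus higher in all 3 numbers, with a family median of 0.48, against a median of 0.0 over all genes.

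Among the 7 HSP70 relatives, HSPA1L, HSPA7 and the mitochondrial HSPA9 were higher in all 3 numbers. HSPA1L, a constitutive cytosolic HSP70 best known from testis, had 7.33, 6.77 and 6.79 in controls, 7.98, 8.85 and 7.76 with 5 nm and 7.38, 6.59 and 6.79 with 100 nm particles. The 5 nm arrays did not overlap the others, and number 2 stood highest. Its 5 nm difference was 1.23 (2.35-fold, 95% interval 0.51 to 1.96; adjusted p = 0.745 in limma, 0.259 with the block), and its 5 probe sets gave 1.23 to 1.33, with 3 of them holding the same values. HSPA7, the pseudogene, had 5.04, 4.46 and 4.79 in controls and 5.41, 6.12 and 5.31 with 5 nm particles. Its control mean of 4.76 lay under the floor of 5, so the difference of 0.85 is given without a fold (adjusted p = 0.306 with the block in limma). HSPA7 also had 5.29, 5.05 and 4.79 with 100 nm particles, a difference of 0.28 that came from numbers 1 and 2. HSPA1L and HSPA7 are close in sequence to HSPA1A, HSPA1B and HSPA6, whose 5 nm differences were 1.75, 2.06 and 2.39, and probe sequences were not analysed here. Whether signal from those genes enters the values of HSPA1L and HSPA7 was not tested.

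The other HSP70 relatives of the cytosol differed less. HSPA14, which works at the ribosome, and HSPA2 differed by 0.12 and 0.08, in each case through number 2 (0.36 and 0.24), with differences of 0.01 or 0 in the other numbers. HSPA12A differed by 0.02. HSPA12B, a distant relative known from endothelial cells, was at 0, -0.23 and -0.29 in the 3 numbers, with a mean of -0.17, the lowest of the members. Leaving out 5 nm replicate 1, the array with a difference of 0, necessarily made the HSPA12B mean lower, at -0.26. That fit, with the block and chosen after seeing the data, gave HSPA12B an adjusted p of 0.0418 in limma, against 0.346 with all arrays. Genes called lower over the whole table went from 43 to 80.

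Mitochondria import unfolded protein and fold it with HSPA9 (mortalin), the matrix HSP70, and with HSPD1, the HSP60 chaperonin. HSPA9 had 11.97, 11.54 and 11.30 in controls, 12.39, 12.14 and 11.71 with 5 nm and 12.01, 11.56 and 11.28 with 100 nm particles. The groups overlapped across numbers, and the 5 nm array was the highest of its number each time. The HSPA9 mean went from 11.60 ± 0.34 (SD, n = 3) to 12.08 ± 0.35 (SD, n = 3), a difference of 0.48 (1.40-fold). With the replicate number as a block the 95% interval was 0.35 to 0.61 and the adjusted p was 0.0468 in limma. Without the block the interval was -0.14 to 1.10 and the adjusted p was 1.0. Over all settings tried it ran from 0.0101, with the block and without 5 nm replicate 2, to 1.0. With the block, HSPA9 was not called when 5 nm replicate 1, a control array or a 100 nm array was left out. The paired fit of the compared groups alone did not call it either. Differences of exactly 0 over all genes also enter the block fit, and their effect on its p-values was not tested. The same-number differences were 0.43, 0.60 and 0.41.

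HSPD1 had 10.63, 10.78 and 9.97 in controls, 11.02, 10.97 and 10.40 with 5 nm and 10.67, 10.78 and 9.78 with 100 nm particles. Both 5 nm arrays of numbers 1 and 2 lay above all control arrays, and that of number 3 did not. The 5 nm differences were 0.39, 0.19 and 0.42, with a mean of 0.34 (1.26-fold) and a block interval of 0.10 to 0.57, at an adjusted p of 0.212 (limma with the block). The third mitochondrial member, PPIF, is cyclophilin D, a regulator of the permeability transition pore. PPIF had 9.96, 9.62 and 9.37 in controls, 9.97, 9.43 and 9.35 with 5 nm and 10.04, 9.75 and 9.49 with 100 nm particles. Its 5 nm differences were 0.01, -0.19 and -0.02, unlike those of the 2 chaperones, and its 100 nm differences were 0.08, 0.12 and 0.12.

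**Figure D2:**
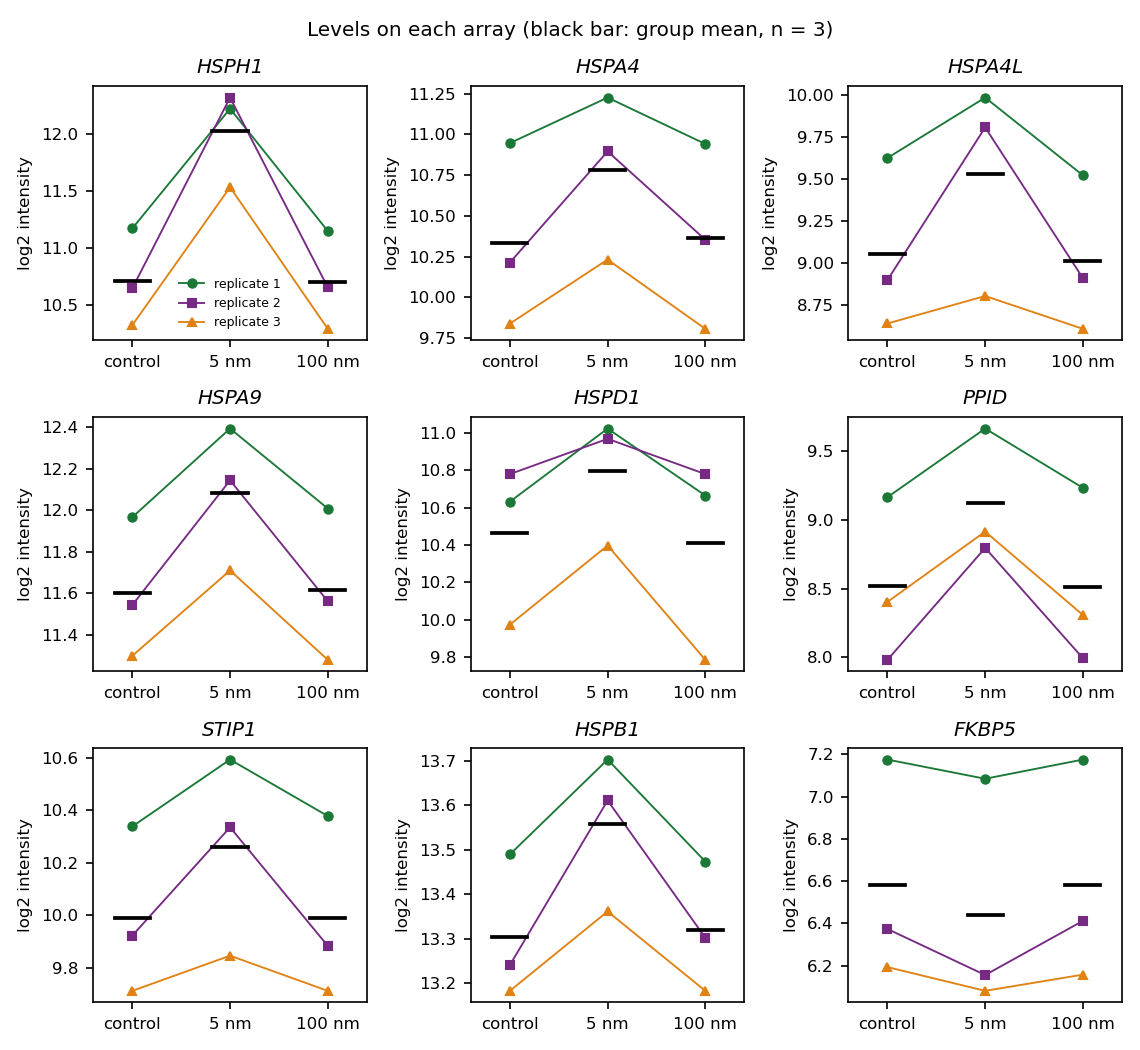
Log2 intensity (y axis, a separate scale for each gene) of 9 members on each of the 9 arrays, by group (x axis); lines join arrays of the same replicate number and black bars are group means (n = 3). For 8 of the genes each line peaks at 5 nm and returns near its start at 100 nm, while FKBP5 dips at 5 nm in all 3 numbers.

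HSP90 works with co-chaperones, and 3 members belong to them: STIP1 (HOP), which passes clients from HSP70 to HSP90, PPID (cyclophilin 40) and FKBP5 (FKBP51), both proline isomerases of steroid receptor complexes. PPID had 9.17, 7.98 and 8.40 in controls, 9.66, 8.80 and 8.92 with 5 nm and 9.23, 7.99 and 8.31 with 100 nm particles. Number 1 stood high in every group, and the groups overlapped. Its 5 nm differences were 0.50, 0.81 and 0.51, with a mean of 0.61 (1.52-fold), a block interval of 0.38 to 0.83 and an adjusted p of 0.0830 (limma with the block). STIP1 had 10.34, 9.92 and 9.71 in controls and 10.59, 10.34 and 9.85 with 5 nm particles, with differences of 0.25, 0.41 and 0.13 and an adjusted p of 0.212 (limma with the block). FKBP5, a gene that glucocorticoids induce, went the other way in all 3 numbers. It had 7.17, 6.37 and 6.19 in controls and 7.08, 6.16 and 6.08 with 5 nm particles, differences of -0.09, -0.22 and -0.11 and a mean of -0.14 (adjusted p = 0.244 with the block in limma).

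Of the small heat shock proteins, HSPB1 (HSP27) was bright on all arrays, with 13.49, 13.24 and 13.18 in controls, 13.70, 13.61 and 13.36 with 5 nm and 13.47, 13.30 and 13.18 with 100 nm particles. The 5 nm array was highest in each number, and only that of number 3 fell within the control range. Its differences of 0.21, 0.37 and 0.18 gave a mean of 0.25 (1.19-fold), with a block interval of 0.15 to 0.36 and an adjusted p of 0.101 (limma with the block). HSPB8, which forms a complex with BAG3, was near the floor of 5 in numbers 2 and 3, with 6.35, 5.01 and 5.17 in controls, 6.77, 5.30 and 5.17 with 5 nm and 6.39, 5.01 and 4.77 with 100 nm particles. Its 5 nm differences were 0.41, 0.29 and 0, and its mean turned from 0.24 to between -0.28 and 0.66 when 1 array was left out without the block.

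**Figure D3:**
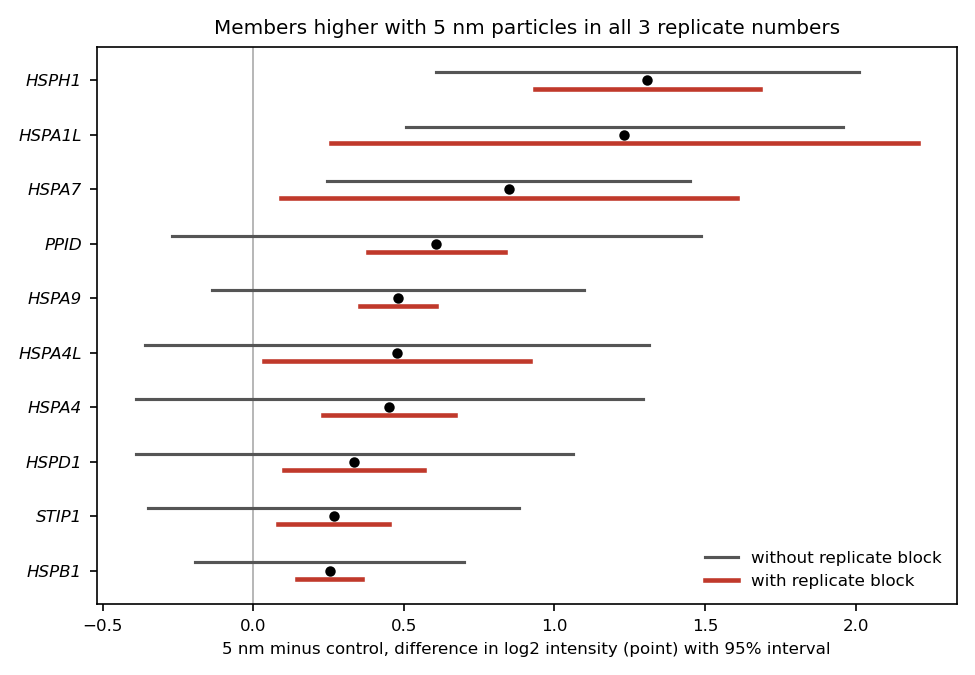
Difference in log2 intensity between 5 nm and control arrays (point) with its 95% interval (x axis) for the 10 members higher in all 3 replicate numbers, from the limma fit without (grey) and with (red) the replicate number as a block. For HSPA9 the grey line runs from -0.14 to 1.10 and the red line from 0.35 to 0.61, while for HSPA1L and HSPA7 the red line is the wider one.

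The cyclophilins and FKBPs of other places had small differences. PPIA (cyclophilin A, cytosol) differed by -0.09 and PPIE, a cyclophilin of the spliceosome, by -0.14, which came from number 1 (-0.39). PPIG and PPIH, also of the nucleus, differed by -0.02 and 0. In the ER, PPIB (cyclophilin B, which helps fold procollagen) differed by 0.01 and PPIC by -0.08. FKBP7 had differences of -0.17, -0.01 and -0.09. FKBP7, FKBP5, PPIE and BAG4 were the 4 members below 0 in all 3 numbers, a share of 11.1% against 13.4% of all genes, so the count of lower members was near the background.

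Prefoldin was the family whose mean differences stayed nearest 0, with 7 of its 15 same-number differences exactly 0. Its 5 measured subunits differed by -0.04 (PFDN6) to 0.02 (PFDN5) with 5 nm particles, and PFDN1, PFDN2 and PFDN4 lay between. The BAG proteins other than BAG3 are exchange factors or regulators of HSP70. BAG1 and BAG2 differed by 0.02 and 0.08, BAG5 by -0.01 and BAG4 by -0.10 (-0.06, -0.05 and -0.19), while BAG3 itself differed by 1.83. The antisense RNAs DNAJC9-AS1 and DNAJC27-AS1 and the cyclophilin PPIH had a 5 nm difference of exactly 0 in all 3 numbers, as had 19.0% of all genes. HSPB2-C11orf52, which shares sequence with the genes it spans, differed by 0.09. Such zeros are frequent between arrays of the same number in these values, so a difference of 0 is not evidence of an equal RNA level. They made up 35 of the 108 same-number 5 nm differences of the members (32.4%), against 47.0% for all genes.

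By compartment, the cytosol held both the largest and the lowest values. Its 23 members had 5 nm differences of -0.17 to 1.31 with a median of 0.02, and 7 were above 0 and 2 below 0 in all 3 numbers, beside 8.03% and 13.4% of all genes. The 3 mitochondrial members had a median of 0.34 (0.39, 0.19 and 0.41 in numbers 1 to 3), with 2 of 3 above 0 throughout. The 3 ER members had a median of -0.08 (-0.17, 0 and 0), with 0 of 3 above 0 throughout, and the 3 nuclear members one of -0.02. The median over all genes was 0.0. The mitochondrial and ER medians each rest on 3 genes, and the ER members are proline isomerases, with no ER member of the HSP70, HSP90 or disulfide isomerase families among them. Without 1 array and without the block, the cytosolic median ran from -0.12 to 0.23, the mitochondrial from 0.09 to 0.54 and the ER median from -0.18 to 0.12.

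Other folding genes were taken from a list of genes outside the members, which includes HSPBAP1 and was drawn up with earlier results of these data known. Of 35 listed genes 22 were tested, and 0 passed without or with the block at an adjusted p under 0.05 (limma), while 12 were above 0 (8.03% of all genes) and 3 below 0 (13.4%) in all 3 numbers after 5 nm particles. The 3 lower ones were thus near the background share. In the cytosol and nucleus 4 of 8 were above 0 throughout. CHORDC1, an HSP90 co-chaperone, went from 7.36 ± 0.38 (SD, n = 3) to 8.92 ± 0.82 (SD, n = 3), with differences of 0.99, 2.42 and 1.27 (adjusted p = 0.223 with the block in limma). ST13, PTGES3 (p23) and CDC37, which serve HSP70 and HSP90, differed by 0.49, 0.40 and 0.25. HSF1 itself differed by -0.04. Of the mitochondrial genes 0 of 4 were above 0 throughout. TRAP1, the mitochondrial HSP90, differed by -0.08 and the protease subunit CLPX by -0.28, unlike HSPA9 and HSPD1.

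The ER list differed from the 3 ER members. All 10 tested ER genes had positive 5 nm means, where 4367 of the 12155 genes had, and 8 were above 0 in every number (8.03% of all genes). Some of the 8 were above 0 by little in number 3: HYOU1 by 0.001, ERP44 by 0.002, CALR by 0.009 and SEC63 by 0.03. The median of the 10 means was 0.14, and ERP44 and ERO1A were close to 0, at 0.005 and 0.004. SDF2L1, a helper of the ER HSP70, differed by 1.70, 1.87 and 0.63, and its mean of 1.40 had an adjusted p of 0.144 (limma with the block). MANF and CRELD2, both induced by ER stress, differed by 0.66 and 0.63, and HYOU1, the HSP110 relative of the ER, by 0.38. By number, MANF was at 0.67, 1.02 and 0.29, CRELD2 at 0.91, 0.90 and 0.08 and HYOU1 at 0.54, 0.60 and 0.001. The lectin chaperones CALR and CANX differed by 0.07 and 0.09. The difference between the ER members and the ER list was not tested.

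**Figure D4:**
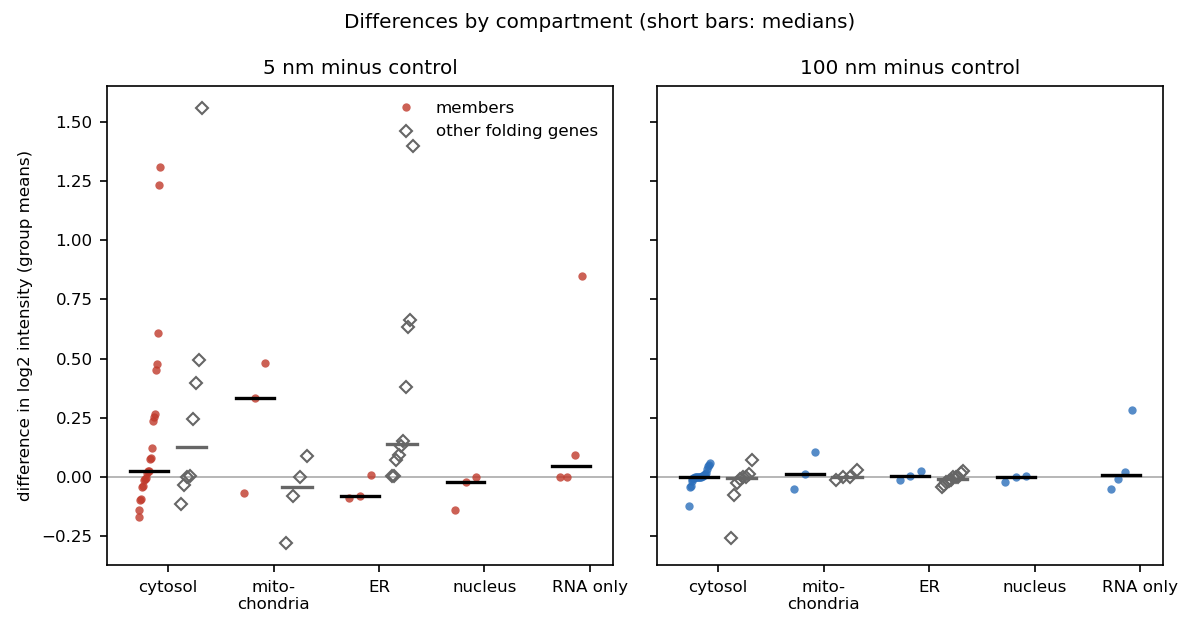
Difference in mean log2 intensity from controls (y axis) for the 36 members (filled circles) and the 22 other folding genes (open diamonds) by compartment (x axis), for 5 nm (left) and 100 nm particles (right); short bars are medians. The member medians at 5 nm are 0.02 (cytosol), 0.34 (mitochondria) and -0.08 (ER), and the ER diamonds on the left all lie above 0.

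The second comparison, 100 nm particles against controls, gave no member past a threshold. The mean differences of the 36 members ran from -0.12 (HSPB8) to 0.28 (HSPA7), with a median of 0.0. In limma 0 members were called at an adjusted p under 0.05, with or without the block, beside 0.0% of all genes, and 0 had an unadjusted p under 0.05 in either fit (0.0% of all genes higher without the block, 0.107% with it). HSPH1 differed by -0.02 with a block interval of -0.39 to 0.36, HSPA9 by 0.01 (-0.11 to 0.14) and PPID by -0.01 (-0.23 to 0.22). For these 3 genes the 100 nm intervals with the block ended below the start of the 5 nm intervals. HSPB1 did so too, at 0.12 and 0.15. Both intervals use the same control arrays, so this is no test of the particle sizes, which are compared directly below. PPIF was the one member above 0 in all 3 numbers (1.25% of all genes) and 0 were below 0 in all 3 (1.41%). Arrays of the 2 groups were apart for 0 members in either direction (0.00823% of all genes higher, 0.0247% lower). BAG1, BAG5, HSPA12B, PFDN1, PFDN5 and PPIG had a difference of exactly 0 in all 3 numbers, 6 members beside 30.3% of all genes. Medians were 0.0 in the cytosol, 0.01 in mitochondria and 0.00 in the ER. Of 22 other folding genes, 5 had positive and 14 negative means, where 4156 and 4322 of the 12155 genes had, and CHORDC1 had the lowest, -0.26.

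The third comparison set the particle sizes against each other. It is the difference of the first 2, which share their 3 control arrays. No member passed an adjusted p under 0.05 in limma, without the block (0.0658% of all genes higher, 0.0% lower) or with it (0.288% higher, 0.329% lower). At an unadjusted p under 0.05, HSPH1 and HSPA1L were higher with 5 nm particles (1.36% of all genes). With the block 10 members were (5.71%), HSPB8 but not HSPA7 among them. HSPH1 was 1.32 higher with 5 nm than with 100 nm particles (1.07, 1.66 and 1.24 by number; adjusted p = 0.487 in limma, 0.0549 with the block), and HSPA9 was 0.47 higher (0.39, 0.58 and 0.43; adjusted p = 0.0516 with the block). PPID was 0.61 higher (adjusted p = 0.0824 with the block in limma). So the HSPA9 call against controls had no counterpart past the threshold between the sizes.

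In all, 11 members were higher with 5 nm than with 100 nm particles in all 3 numbers (8.04% of all genes). They were HSPB8, at 0.38, 0.29 and 0.40, and the 10 members that were higher than controls in all 3 numbers. Another 5 were lower in all 3 (13.0%): BAG4, FKBP5, FKBP7, PPIE and PPIF. PPIF was at -0.07, -0.31 and -0.14, a mean of -0.17 (adjusted p = 0.269 with the block in limma). The 5 nm arrays lay above all 100 nm arrays for HSPH1, HSPA1L and HSPA7 (1.37% of all genes) and below them for 0 members (0.444%). With the block and an unadjusted p under 0.05, BAG4, FKBP5 and PPIF were lower (8.59% of all genes).

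Markers of both parents of the line were looked up. Of 10 listed endothelial genes 7 had a named probe set, with control means of 5.98 to 12.4, and of 6 epithelial genes 5 had one, with 5.15 to 10.85. KRT18 and KRT8 had 10.85 and 7.43. The other epithelial genes, KRT19 (6.12), SFTPB (6.06) and EPCAM (5.15), lay nearer the array medians of 5.15 to 5.64, as did the endothelial VWF (5.98). CD14 (leukocyte) and LUM (fibroblast) were under 5 in controls, at 4.60 and 3.80. The summed log2 level of the 7 endothelial genes was 62.78 to 65.62 in controls, 61.8 to 64.45 with 5 nm and 62.79 to 65.57 with 100 nm particles. With 5 nm particles 2 of the 7 (KDR and ICAM2) were below control in all 3 numbers and 0 above, with a median difference of -0.14. Of the 5 epithelial genes 1 (KRT8) was below in all 3 and 0 above, with a median of -0.01. Over all genes 13.4% were below and 8.03% above in all 3. The part of these marker differences in the chaperone differences was not tested. In RNA from whole cultures, a difference in every cell and one in a share of the cells cannot be told apart. Array medians were 5.15 to 5.64, and 10764 to 11944 genes per array reached a log2 intensity of 5.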

How the data were processed

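The deposited values are log2 intensities per probe set, which the authors made with RMA (background correction, quantile normalization, median polish) in Affymetrix's Expression Console, version 1.3.1 (source: the submitters' processing notes). Per the labels' protocols each array took 300 ng of RNA. Arrays of the same replicate number held exactly equal values for 46.9% to 57.6% of probe sets, and arrays of different numbers for at most 0.00373%, so small differences may be hidden as 0. The array's build: not given in the sources used here.

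Of 53617 probe sets, 16098 had 1 gene symbol, 0 several and 37519 (70.0%) none here. Symbols were updated through Entrez identifiers (16098 matched). Of 14884 genes, 779 had more than 1 probe set, and the one with the highest mean stood for the gene. A log2 value of 5 on at least 3 arrays left 12155 genes. Models were fitted to all 9 arrays with lmFit and eBayes of limma (3.58.1, in R 4.3.3), with Benjamini-Hochberg adjusted p under 0.05 over all 12155 genes, first without a block and then with the replicate number as one. The limma fit, without and with the block, was checked on simulated data for 5 nm against control. Those data had independent noise and lacked the exactly equal values of the deposited ones. The counts, medians and promoter searches were not checked in this way. Arrays of the same number deviated together: deviations from group means correlated at r = 0.762 to 0.967 over 9 same-number pairs and at r = -0.582 to -0.265 over 18 others. Deviations within a group cancel out, so the negative r follows from the positive one and is no separate evidence. The equal values of same-number arrays also enter the positive r. Precision is limited by 3 arrays a group. Alternatives were the block, the compared groups alone, the floor, averaged probe sets and median centring. Quantile normalization, a trended prior variance and leaving out each array were further ones. The 2 combinations of the block with an array left out and with a trended prior variance were chosen after seeing the data.

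Members, lists and tests were chosen with earlier results of these data known. Named genes were members past the threshold in the fit without or with the block, the 2 largest and the lowest 5 nm difference of each family of 3 or more, and a list of defining members. Members whose 5 nm arrays did not overlap the controls and whose same-number differences exceeded 0.5 in size in all 3 numbers were also named. The others are given as values. Protein sequences were not used here.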

Additional observations from a re-analysis of the deposited data

How the results depend on the processing

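The replicate block raised the members called for 5 nm against control from 0 to 1 (HSPA9), with a trended prior variance too (1, HSPA9; chosen after seeing the data), and quantile normalization gave 1 (HSPH1, 1.26, adjusted p = 0.0278 in limma). Between the particle sizes quantile normalization gave 1 (HSPH1, 1.28, adjusted p = 0.0301). Leaving out 1 array gave 0 to 0 members without the block and 0 to 3 with it for both of these comparisons: 3 without 5 nm replicate 2 (HSPA9, HSPH1, PPID) and 1 without 5 nm replicate 1 (HSPA12B), and for 5 nm against control 1 without 5 nm replicate 3 (HSPA9). Calls over all genes rose in the same fits: for 5 nm against control, from 36 higher and 43 lower with the block to 153 and 173 without 5 nm replicate 2, 51 and 80 without replicate 1 and 178 and 268 without replicate 3, and between the sizes from 35 and 40 to 152 and 178 without replicate 2 and 48 and 83 without replicate 1. For 100 nm against control every alternative gave 0. The cause of these moves was not tested. Limiting the fit to the compared groups, another floor or averaged probe sets gave 0 members, and the paired fit of the compared groups alone also 0.

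Compartment medians without 1 array, without the block and then with it, ran as follows. For 5 nm the cytosol gave -0.123 to 0.228 and 0.0 to 0.0578, mitochondria 0.0908 to 0.535 and 0.256 to 0.421, and the ER -0.176 to 0.122 and -0.117 to -0.0062. For 100 nm the cytosol gave -0.231 to 0.213 and -0.0097 to 0.0231, mitochondria -0.18 to 0.239 and -0.018 to 0.0415, and the ER -0.16 to 0.147 and -0.0025 to 0.0337. With the block that cytosolic 100 nm median was 0.0035 without control replicate 1 and 0.0013, 0.021 and -0.0073 without 100 nm replicates 1, 2 and 3. The 100 nm cytosolic median of 0.0 became 0.0001 with averaged probe sets, 0.0024 with median centring and 0.0074 with quantile normalization. Without the block, leaving out 1 array can turn the sign of small differences. HSPH1, HSPA1L, HSPA4, HSPA4L, HSPA7, HSPA9, HSPD1, HSPB1, PPID and STIP1 stayed positive for 5 nm against control under all alternatives run. These are the members above 0 in all 3 numbers, so with the block a positive sign was largely fixed in advance and is no separate support. Signal near the floor of 5 limits HSPA7, HSPB8, DNAJC27-AS1, DNAJC9-AS1 and HSPB2-C11orf52. The last 3 had control means of 4.69, 5.16 and 5.13. All members are limited by 3 arrays a group.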
